A study of Homo sapiens with 25 samples.

Results

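The 10 genes described here encode the enzymes of serine synthesis (PHGDH, PSAT1 and PSPH), the serine hydroxymethyltransferases SHMT1 and SHMT2, the mitochondrial folate enzymes MTHFD2, MTHFD1L and ALDH1L2, the proline enzyme PYCR1 and asparagine synthetase, ASNS. They were chosen by name from the 60179 genes of the deposited RNA table, with earlier results of these data known. All 10 were found, and 8 of the 10 had a mean of at least 1 TPM (a share of all transcripts, corrected for transcript length) over the 9 RNA libraries and were tested. PHGDH and ALDH1L2 fell below that level in every group.

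The cells were HEC-1A, a human epithelial line derived from an adenocarcinoma of the endometrium, labelled WT in all groups. RNA-seq and ATAC-seq, which maps open DNA by transposon insertion, each had 3 libraries after 24 h in 20 µM THC (tetrahydrocannabinol, a cannabinoid of cannabis), 3 after 72 h in 20 µM THC and 3 from untreated cells. CUT&RUN for H3K4me3, a histone mark of active promoters, had 3 THC libraries, whose labels give the 20 µM dose but no duration, and 3 untreated libraries. The CUT&RUN control with IgG is not analysed here. The labels give no time and name no vehicle for the untreated cells, so THC exposure, vehicle and time in culture cannot be told apart. All libraries come from 1 cell line, and nothing says that the labelled biological replicates were separate cultures, so p-values measure the spread between these libraries, which may be technical.

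Serine is made from a glycolytic intermediate in a chain of reactions begun by PHGDH, continued by PSAT1 and ended by PSPH. Hydroxymethyltransferases split serine into glycine and a one-carbon unit carried on folate, and the mitochondrial enzymes MTHFD2 and MTHFD1L turn that unit into formate, which the cytosol uses for purines and thymidylate. ASNS makes asparagine from aspartate, and several of these genes are textbook targets of the transcription factor ATF4 in amino acid and endoplasmic reticulum stress.

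RefSeq promoters (GRCh38.p14) were given for 6 of the 10 genes, ASNS, PHGDH, PSAT1, SHMT1, MTHFD2 and MTHFD1L. The 120-base stretches below end at the base before the gene start, and the MTHFD1L stretch surrounds its motif. They are shown because they lie under the promoter peaks described further on, or, for PHGDH, where no peak was listed. Capitals mark the composite C/EBP-ATF core TGATGNAA, the type of element that ATF4 and C/EBP factors share, and a stretch with no capitals holds none. The ASNS stretch is chr7:97872409-97872528 on the minus strand, with its core at chr7:97872469-97872476, 68 bases upstream of the start. The MTHFD1L core begins 129 and 90 bases upstream of 2 of the listed starts of that gene, and at base 25 counted from another that lies before it.
ASNS: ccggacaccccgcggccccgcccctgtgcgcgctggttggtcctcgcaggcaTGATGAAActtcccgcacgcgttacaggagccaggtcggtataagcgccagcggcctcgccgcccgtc
PHGDH (chr1:119711814-119711933, plus strand): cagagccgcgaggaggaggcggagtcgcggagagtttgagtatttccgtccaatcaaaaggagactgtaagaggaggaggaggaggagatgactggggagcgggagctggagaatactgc
PSAT1 (chr9:78297005-78297124, plus strand): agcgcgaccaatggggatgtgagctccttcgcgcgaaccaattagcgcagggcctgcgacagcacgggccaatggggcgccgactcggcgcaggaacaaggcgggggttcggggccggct
SHMT1 (chr17:18363551-18363670, minus strand): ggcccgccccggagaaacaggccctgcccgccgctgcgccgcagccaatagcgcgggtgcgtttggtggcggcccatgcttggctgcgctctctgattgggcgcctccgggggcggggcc
MTHFD2 (chr2:74198495-74198614, plus strand): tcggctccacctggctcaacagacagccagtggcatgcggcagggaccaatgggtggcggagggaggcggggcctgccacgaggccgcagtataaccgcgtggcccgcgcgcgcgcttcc
MTHFD1L (30 bases around its core, chr6:150866346-150866375, plus strand): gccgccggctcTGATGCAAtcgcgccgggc
Of these 120-base stretches the PHGDH one had the lowest GC content, 57.5%, and the other 4 held 69.2% to 75.8%. On either strand of the RefSeq promoters, which run from 250 bases before a start to 50 bases after it, TGATGNAA was found for 2 of the 6 genes, ASNS and MTHFD1L, and for 4.46% of all 27305 genes in the table (3.62% of their 35116 promoters). The E-box CACGTG was found for MTHFD1L alone of the 6 and for 8.78% of all genes (7.26% of promoters). The antioxidant response core TGACNNNGC was found for MTHFD2 alone of the 6 and for 16.1% of all genes (13.3% of promoters). These matches describe the letters of the window and say nothing of binding.

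After 24 h in THC, 6 of the 8 tested genes rose (ASNS, MTHFD2, MTHFD1L, SHMT2, PYCR1 and PSAT1) and 2 fell (SHMT1 and PSPH), by limma on log2(TPM + 1) with a Benjamini-Hochberg adjusted p of 0.05 over all tested genes. Of all 13753 genes tested, 25.0% rose and 51.7% fell in that comparison. After 72 h, 6 of the 8 were higher than in untreated cells, 1 (SHMT1) was lower and PSPH did not pass the test, beside 40.1% of all tested genes higher and 33.0% lower. The median log2 fold change of the 8 was 0.95 at 24 h and 0.85 at 72 h, against -0.23 and 0.06 over all tested genes. The 10 levels summed to 1373 to 1387 TPM in THC 24 h libraries and 1358 to 1371 TPM in THC 72 h libraries, against 687 to 721 TPM in untreated libraries.

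**Figure D1:**
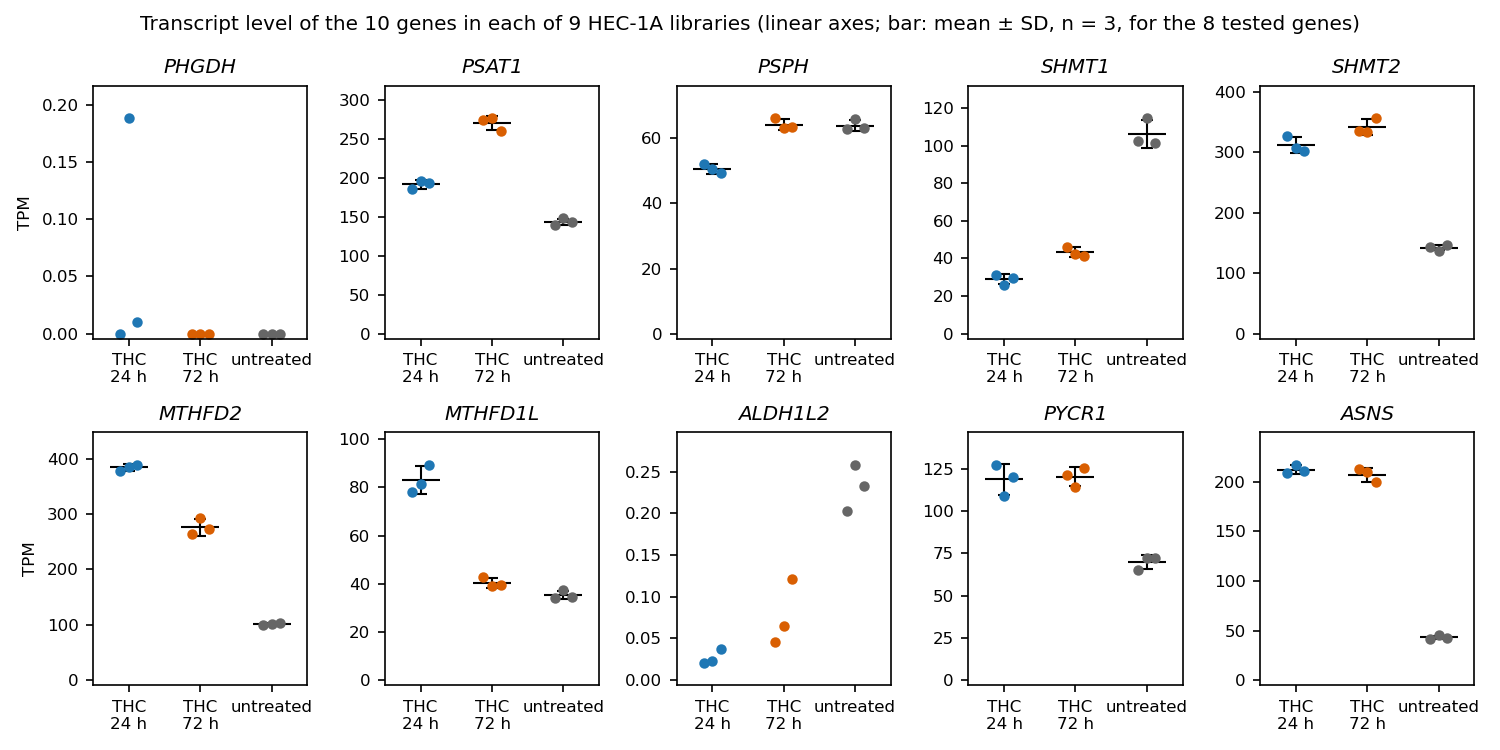
TPM of each of the 10 genes in the 9 RNA libraries (points), with the mean and SD of 3 libraries for the 8 tested genes, on linear axes that differ between panels. ASNS, MTHFD2, SHMT2, PSAT1 and PYCR1 lie above the untreated libraries at both times, SHMT1 lies below them, and PHGDH and ALDH1L2 stay under 0.3 TPM.

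Scaling touches these numbers. TPM is a share of all transcripts, and mitochondrially encoded genes summed to 33014 to 34121 TPM in THC 24 h libraries and 11635 to 13664 TPM in THC 72 h libraries, against 70021 to 76909 TPM in untreated libraries, and a smaller share there leaves a larger one to other genes. When each library was centred on its median, all 8 genes kept their direction and call at 24 h, and 4954 genes rose and 5128 fell. Every one of 8 epithelial markers had a mean of at least 1 TPM, and they summed to 5326 to 5603 TPM at 24 h and 3912 to 4156 TPM at 72 h, against 3197 to 3311 TPM untreated. The sum hides differences between markers. By the same test all 8 were higher at 24 h, but at 72 h 3 were higher and 2, CDH1 and EPCAM, were lower. Of all tested genes 25.0% rose at 24 h, and 40.1% were higher and 33.0% lower at 72 h. Stromal, immune and endothelial markers summed to at most 3.21 TPM in any library. In a bulk sample, fewer cells of a type and less RNA per cell cannot be told apart.

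PHGDH, the dehydrogenase that commits glycolytic carbon to serine, was listed at 0 TPM in 7 of 9 libraries. It had 0, 0.188 and 0.00988 TPM in the THC 24 h libraries and was listed at 0 in all 3 THC 72 h and all 3 untreated libraries. No fold change is given, and depth is unknown in a TPM table, so a low level cannot be told from none. Its 2 partners in the chain, by contrast, were among the well expressed genes of the set.

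PSAT1, the aminotransferase that follows PHGDH and takes its amino group from glutamate, had 185, 196 and 193 TPM in THC 24 h libraries, 274, 276 and 260.5 TPM in THC 72 h libraries, and 139, 148 and 143 TPM in untreated libraries. No library of one group reached the range of another, and the 72 h libraries were highest. The mean was 1.34 times the untreated mean at 24 h (log2 fold change 0.42 ± 0.04 SE, limma adjusted p = 7.02e-06) and 1.89 times at 72 h (0.91 ± 0.04, limma adjusted p = 2.65e-08).

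PSPH, the phosphatase of the last step, had 52.1, 50.5 and 49.2 TPM in THC 24 h libraries, 66.2, 63.2 and 63.4 TPM in THC 72 h libraries, and 62.7, 65.9 and 63.2 TPM in untreated libraries. Only the 24 h libraries stood apart, below the others. PSPH fell by 0.33 ± 0.04 (SE) on the log2 scale at 24 h (limma adjusted p = 4.67e-05), and the fall was 0.11 with libraries centred on their median (limma adjusted p = 0.0211). At 72 h the log2 fold change was 0.01, with a 95% interval of -0.09 to 0.10 (limma adjusted p = 0.887), and the groups overlapped. The chain from PHGDH to PSPH thus held 1 gene near 0, 1 that rose at both times and 1 that was lower at 24 h.

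The 2 serine hydroxymethyltransferases moved in opposite directions. SHMT2, the mitochondrial enzyme, had 327, 308 and 302 TPM in THC 24 h libraries, 336, 334 and 356 TPM in THC 72 h libraries, and 143, 137 and 146 TPM in untreated libraries. SHMT1, the cytosolic enzyme, had 31.2, 26.1 and 29.8 TPM in THC 24 h libraries, 46.2, 42.3 and 41.5 TPM in THC 72 h libraries, and 102, 115 and 101 TPM in untreated libraries. All THC libraries lay above all untreated ones for SHMT2 and below all of them for SHMT1.
SHMT2 averaged 2.2 times its untreated mean at 24 h (log2 fold change 1.13 ± 0.05 SE, limma adjusted p = 1.05e-08) and 2.41 times at 72 h (1.26 ± 0.05, limma adjusted p = 5.28e-09). SHMT1 averaged 0.273 times its untreated mean at 24 h (-1.84 ± 0.08 SE, limma adjusted p = 1.20e-08) and 0.408 times at 72 h (-1.27 ± 0.08, limma adjusted p = 1.69e-07). Of the 8 tested genes SHMT1 had the largest fall and was the only one lower at both times.

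MTHFD2, the mitochondrial dehydrogenase and cyclohydrolase of folate carbon, had 377, 386 and 389 TPM in THC 24 h libraries, 263, 293 and 272 TPM in THC 72 h libraries, and 99.6, 101 and 102 TPM in untreated libraries. The 3 groups did not overlap, and the 24 h libraries were highest. It rose 3.81-fold at 24 h (log2 fold change 1.92 ± 0.04 SE, limma adjusted p = 3.20e-10) and 2.74-fold at 72 h (1.44 ± 0.04, limma adjusted p = 1.69e-09).

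MTHFD1L, the mitochondrial ligase that releases formate, had 77.9, 81.5 and 89.4 TPM in THC 24 h libraries, 42.8, 39.0 and 39.4 TPM in THC 72 h libraries, and 34.3, 37.3 and 34.4 TPM in untreated libraries. Its 24 h libraries were far above the rest, and its 72 h libraries lay just above the untreated ones. It rose 2.35-fold at 24 h (log2 fold change 1.21 ± 0.06 SE, limma adjusted p = 5.98e-08) and was 1.14-fold higher at 72 h (0.19 ± 0.06, limma adjusted p = 0.0206). The 72 h call was lost without untreated replicate 1 (limma adjusted p = 0.0684), without untreated replicate 3 (0.0652), without THC 72 h replicate 1 (0.0763), with libraries centred on their median (0.138) and with mitochondrially encoded genes left out of the TPM total (0.176).

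ALDH1L2, which burns formyl-folate to carbon dioxide in mitochondria, was barely listed. It had 0.0200, 0.0232 and 0.0369 TPM in THC 24 h libraries, 0.0453, 0.0653 and 0.121 TPM in THC 72 h libraries, and 0.203, 0.258 and 0.232 TPM in untreated libraries. The 3 groups did not overlap, untreated libraries being highest, but all values were far under the 1 TPM needed for the main test. With no filter on low values its log2 fold change was -0.26 at 24 h and -0.19 at 72 h (limma adjusted p = 1.72e-04 and 0.00108), on a scale where the added 1 TPM exceeds every value. It is the added gene in the counts of 3 described genes lower at 24 h and 2 lower at 72 h in that fit. Its cytosolic relative ALDH1L1 was listed at no more than 0.0445 TPM in any library, so no ratio of the pair was computed.

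PYCR1, a mitochondrial enzyme of the last step of proline synthesis, had 127, 109 and 120.0 TPM in THC 24 h libraries, 122, 114 and 125 TPM in THC 72 h libraries, and 64.9, 72.0 and 71.9 TPM in untreated libraries. Both THC groups lay above the untreated libraries and overlapped each other. It rose 1.71-fold at 24 h (log2 fold change 0.76 ± 0.07 SE, limma adjusted p = 2.51e-06) and 1.73-fold at 72 h (0.78 ± 0.07, limma adjusted p = 2.26e-06).

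ASNS, the glutamine-dependent asparagine synthetase, had 208, 217 and 211 TPM in THC 24 h libraries, 213, 209.6 and 199 TPM in THC 72 h libraries, and 41.5, 45.0 and 42.9 TPM in untreated libraries. THC libraries of the 2 times overlapped, and each held over 4 times the highest untreated level. Its rise was the largest of the 8 tested genes at either time, 4.91-fold at 24 h (log2 fold change 2.27 ± 0.04 SE, limma adjusted p = 1.43e-10) and 4.80-fold at 72 h (2.24 ± 0.04, limma adjusted p = 1.33e-10). Listed pseudogene copies of ASNS, MTHFD2, PSAT1, PSPH and SHMT1 reached at most 0.271 TPM in any library.

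**Figure D2:**
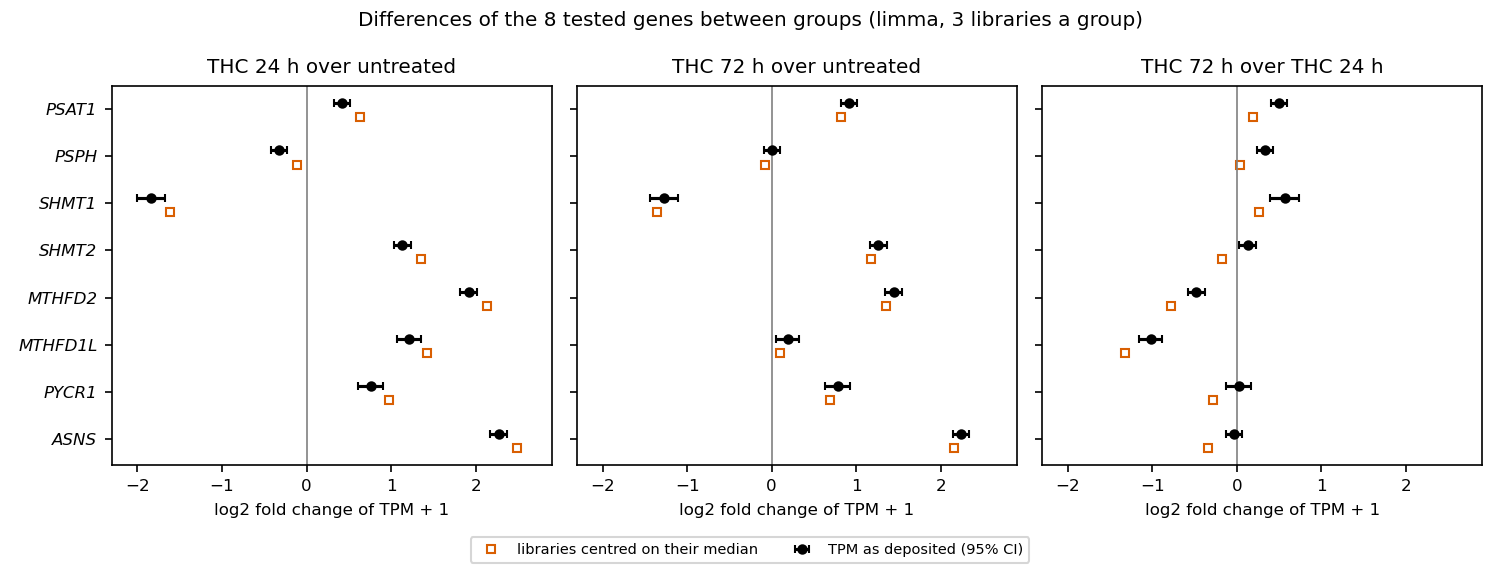
Log2 fold change of TPM + 1 for the 8 tested genes in 3 comparisons, with 95% intervals (filled), and the same with each library centred on its median (open squares). ASNS, MTHFD2 and SHMT2 lie right of 0 and SHMT1 lies left of it against untreated cells under both scalings, and MTHFD1L lies near -1 for 72 h over 24 h.

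Between the THC times, 4 of the 8 tested genes were higher at 72 h than at 24 h (PSAT1, PSPH, SHMT1 and SHMT2) and 2 were lower (MTHFD2 and MTHFD1L), beside 54.9% of all tested genes higher and 17.8% lower. The median of all tested genes was 0.26 in this comparison, and centring left 4176 genes higher and 5217 lower, with 2 of the 8 members higher and 5 lower. MTHFD1L averaged 40.4 ± 2.08 TPM at 72 h and 83.0 ± 5.86 TPM at 24 h (SD, n = 3 each), a log2 difference of -1.02 ± 0.06 (SE, limma adjusted p = 4.27e-07). MTHFD2 differed by -0.48 ± 0.04 (limma adjusted p = 5.61e-06) and PSAT1 by 0.50 ± 0.04 (limma adjusted p = 3.10e-06).
SHMT1 regained part of its loss, by 0.57 ± 0.08 (limma adjusted p = 7.60e-05). These 4 differences kept their sign and call under centring, but their sizes moved, to 0.19 for PSAT1, 0.26 for SHMT1, -0.78 for MTHFD2 and -1.32 for MTHFD1L. PSPH differed by 0.34 ± 0.04 (limma adjusted p = 5.13e-05), which centring reduced to 0.03 (limma adjusted p = 0.456). SHMT2 differed by 0.13 ± 0.05 (limma adjusted p = 0.0251), and centring reversed it to -0.17 (limma adjusted p = 0.0155). That SHMT2 call was also lost without THC 24 h replicate 2 (0.0687), THC 24 h replicate 3 (0.0997) or THC 72 h replicate 3 (0.0896). ASNS differed by -0.03 (95% interval -0.13 to 0.07, limma adjusted p = 0.516), and PYCR1 by 0.02 (95% interval -0.13 to 0.17, limma adjusted p = 0.791), with centred values of -0.34 and -0.28 that passed the test.

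The order of the members by mean TPM differed between the groups. In THC 24 h libraries MTHFD2 led with 384 TPM, followed by SHMT2 with 312, ASNS with 212, PSAT1 with 191, PYCR1 with 119, MTHFD1L with 83.0, PSPH with 50.6 and SHMT1 with 29.0 TPM, and no neighbours in that order overlapped. In THC 72 h libraries SHMT2 led with 342 TPM, and MTHFD2 with 276 TPM and PSAT1 with 270.2 TPM overlapped behind it. ASNS, PYCR1 and PSPH followed, and SHMT1 with 43.3 TPM and MTHFD1L with 40.4 TPM overlapped at the low end. In untreated libraries PSAT1 with 143 TPM and SHMT2 with 142 TPM overlapped at the top. SHMT1 with 106 TPM overlapped MTHFD2 with 101 TPM, and PYCR1 with 69.6 TPM overlapped PSPH with 63.9 TPM. ASNS with 43.2 TPM and MTHFD1L with 35.3 TPM were lowest of the 8 there.

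A ratio of 2 genes within a library does not depend on how TPM is scaled, so paired enzymes were also compared that way, in 12 exact two-sided permutation tests over libraries. With 3 libraries against 3, the smallest p that such a test can give is 0.1, and all 12 gave 0.1 (adjusted 0.1), each with groups that did not overlap. The share of other gene pairs that separate in this way was not computed. MTHFD2 and MTHFD1 each enter more than 1 ratio, so the 12 results are not independent. The ratio of mitochondrial SHMT2 to cytosolic SHMT1 was 10.5, 11.8 and 10.1 in THC 24 h libraries, 7.26, 7.89 and 8.59 in THC 72 h libraries, and 1.39, 1.20 and 1.44 in untreated libraries. The mitochondrial form was thus in excess in every group, and by 8.06 times more at 24 h and 5.90 times more at 72 h than in untreated cells.
The ratio of MTHFD2 to MTHFD1, the cytosolic enzyme with 3 folate activities, averaged 4.42 ± 0.08 at 24 h, 3.39 ± 0.14 at 72 h and 0.760 ± 0.040 untreated (SD, n = 3 each). MTHFD1 itself had 84.9 to 89.1 TPM at 24 h and 80.6 to 82.6 TPM at 72 h, against 126 to 141 TPM untreated, and fell at both times (log2 fold changes -0.61 and -0.70, limma adjusted p = 9.91e-07 and 4.05e-07). The ratio of MTHFD1L to MTHFD1 averaged 0.955 ± 0.067 at 24 h, 0.496 ± 0.031 at 72 h and 0.266 ± 0.005 untreated. That ratio stood 1.87 times higher at 72 h than in untreated libraries, where the MTHFD1L level itself was 1.14 times higher.
MTHFD2 exceeded its relative MTHFD2L by 42.1 ± 3.02 times at 24 h, 20.8 ± 1.84 times at 72 h and 9.11 ± 0.57 times untreated. All 4 ratios were highest at 24 h, lower at 72 h and lowest in untreated cells.

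**Figure D3:**
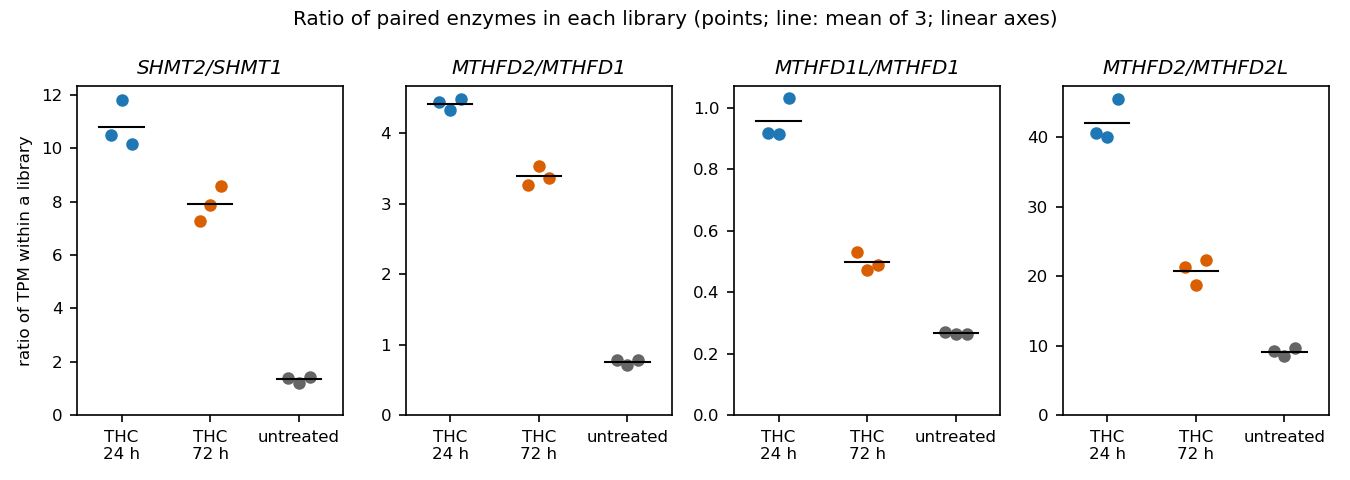
Ratio of TPM of 4 enzyme pairs within each RNA library (points) with the mean of 3 libraries (lines), on linear axes from 0. In each pair the THC 24 h libraries are highest, the THC 72 h libraries lie between, and the untreated libraries are lowest, as with SHMT2/SHMT1 at 10.8, 7.91 and 1.34.

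The genes with the most similar profiles were sought among 10603 genes with a mean of at least 5 TPM, by the root mean square difference of log2(TPM + 1) over the 9 libraries after centring on untreated cells. The nearest to ASNS was MXD1 (0.09 log2 units) and the nearest to MTHFD2 was NABP1 (0.05). SHMT2 was nearest to PAQR5 (0.07) and then to FTH1, the ferritin heavy chain (0.07). SHMT1 was nearest to LSS, an enzyme of sterol synthesis (0.09), and then to the cyclin CCNF (0.09). MTHFD1L was nearest to PXN (0.10), PSAT1 to RPL37A (0.04), PSPH to TSPYL1 (0.03) and PYCR1 to CAPN10 (0.05). CBS, which joins serine to homocysteine, was the third nearest to PYCR1 (0.07).

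The chromatin lists were read at the gene starts, within 1000 bases on each side, as the libraries in which the authors' peaks touched that window. For PSPH, SHMT2, ALDH1L2 and PYCR1 the strand was not used here, and the gene end described is the one with promoter peaks. In both the 3 THC and the 3 untreated H3K4me3 libraries, 8 of the 10 genes had a peak at the start in every library, all those tested for RNA. For PSPH, SHMT2 and PYCR1 the end was chosen by these peaks, so the count is not independent of them. Of 10084 genes with a mean of at least 1 TPM, 93.8% had H3K4me3 at the start in all 6 libraries. ALDH1L2 had a peak of 533 bases in 1 of 3 THC libraries and in none of the untreated ones.
PHGDH had no ATAC peak at its start in any of 9 libraries and no H3K4me3 peak in any of 6. The nearest H3K4me3 peak to its start lay 36243 to 62561 bases away in THC libraries and 36229 to 62378 bases away in untreated libraries. Among 6976 genes under 0.1 TPM, 88.4% likewise had no H3K4me3 peak at the start in any library, and 49.5% had no ATAC peak there in any. At its 3′ end PHGDH had an ATAC peak in all 3 THC 24 h libraries, 2 THC 72 h libraries and 2 untreated libraries.

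No gene of the 10 gained or lost a start peak, a gain being a peak in all 3 THC libraries and in 0 of the 3 untreated ones, and a loss the reverse. Over the 10084 genes, H3K4me3 peaks were gained at 0.0496% and lost at 0.0% of starts. ATAC peaks were gained at 0.0% and lost at 0.179% at 24 h, and gained at 0.00992% and lost at 0.248% at 72 h. ATAC peaks were listed in all 3 libraries for 9 of the 10 genes at 24 h, 6 at 72 h and 9 in untreated cells. All 9 libraries listed one for 6 of the 8 genes tested for RNA, beside 80.1% of the 10084 genes with a mean of at least 1 TPM. Neither PHGDH nor ALDH1L2, both under that level, had one in all 9. The 3 genes missing at 72 h, SHMT2, ALDH1L2 and PYCR1, lacked a peak in THC 72 h replicate 2, whose list was the shortest with 38495 peaks, and without that library the count was 9. ATAC lists held up to 150884 peaks and H3K4me3 lists 30098 to 35879.

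The longest peak at the start did not separate the groups by its length for any member. The bases covered by H3K4me3 peaks within 1000 bases of the start separated them for SHMT2 alone. This measure cannot exceed the window of 2001 bases. PSAT1, PSPH and MTHFD1L filled it in all 6 libraries and PYCR1 in all but untreated replicate 2, so no increase could show there. PHGDH had no peak to measure. SHMT2 had 1947, 1840 and 1978 bases in THC libraries and 1491, 1839 and 1503 bases in untreated libraries, a gap of 1 base at the edge. For neither measure was the share of all genes with separated groups computed, so this separation has no background to be judged by. At the ASNS start the longest H3K4me3 peak covered 2219, 2450 and 2777 bases in THC libraries and 2170, 2111 and 2245 bases in untreated libraries. Its ATAC peak covered 534, 555 and 711 bases at 24 h, 781, 407 and 513 bases at 72 h, and 513, 508 and 831 bases untreated, so a gene with a 4.91-fold rise in RNA had overlapping peak lengths. The TGATGAAA core shown above lay inside the ATAC peak in all 9 libraries and inside the H3K4me3 peak in all 6.
At SHMT1, which fell, the longest H3K4me3 peak covered 2453, 2772 and 3004 bases in THC libraries and 2831, 2873 and 2616 bases in untreated libraries, and the ATAC peak at the start ranked in the top 4.14% of its list in every library. PSPH had the widest H3K4me3 peaks of the set, 6298 to 8137 bases in THC libraries and 6488 to 9710 bases in untreated libraries. At MTHFD1L the ATAC peak covered the TGATGCAA core in 3 of 3 libraries at 24 h, 2 of 3 at 72 h and 3 of 3 untreated, the exception again being THC 72 h replicate 2. Peak heights were called per library and were not compared between lists.

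**Figure D4:**
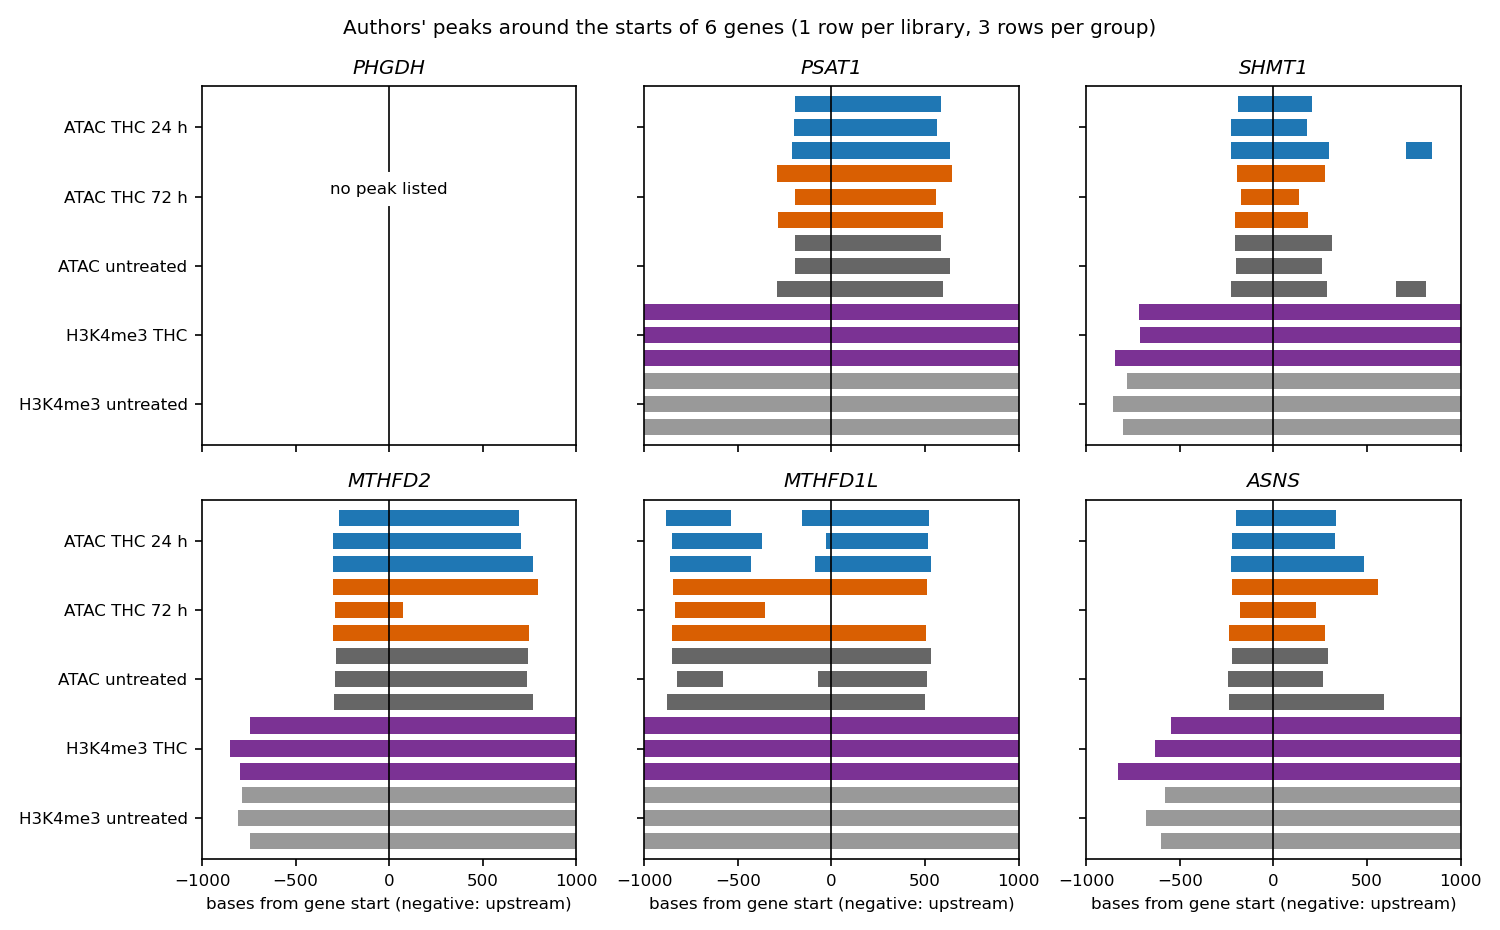
Extent of the authors' ATAC and H3K4me3 peaks within 1000 bases of the start of the 6 genes with a RefSeq promoter, 1 row per library, in the direction of transcription. PHGDH has no peak in any row, and at the other 5 starts THC and untreated rows cover overlapping stretches.

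Around the members, the rest of the pathways was read from fixed lists, of which the most changed genes are named. Of 12 tested genes of serine and glycine use, 4 rose and 6 fell at 24 h, and 7 were higher and 5 lower at 72 h. GNMT, 1 of the 7, passed the filter of 1 TPM only through its 72 h libraries, so its call is not independent of the filter. With a mean of at least 5 TPM, fewer genes were tested and 4 were higher at 72 h. Over all tested genes the shares were 25.0% and 51.7% at 24 h, and 40.1% and 33.0% at 72 h. Among the 12 genes were subunits of the glycine cleavage system, the mitochondrial complex that takes a one-carbon unit from glycine. GLDC had 4.61, 5.23 and 4.73 TPM at 24 h and 3.03, 2.24 and 2.80 TPM at 72 h, against 11.4, 12.6 and 11.7 TPM untreated, and fell by 1.14 and 1.81 on the log2 scale (limma adjusted p = 1.39e-06 and 5.42e-08). DLD fell by 1.10 and 1.20 (limma adjusted p = 3.96e-07 and 2.35e-07), while AMT, at 1.14 to 6.82 TPM, rose by 1.13 and 1.36 (limma adjusted p = 8.40e-04 and 2.63e-04).

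Of 17 tested genes of the folate and methionine cycles, 3 rose and 11 fell at 24 h, beside 25.0% and 51.7% of all tested genes. At 72 h 6 were higher and 7 lower, beside 40.1% and 33.0%, and the 6 became 3 with centring and 3 with mitochondrially encoded genes left out. TYMS, thymidylate synthase, which uses a folate one-carbon unit, had 47.4, 49.2 and 53.8 TPM at 24 h and 77.8, 74.2 and 69.0 TPM at 72 h, against 160.5, 172 and 165 TPM untreated. It fell at both times, and its 3 groups did not overlap (log2 fold changes -1.71 and -1.16, limma adjusted p = 4.23e-09 and 6.08e-08). With libraries centred on their median, 5 genes of this list rose and 7 fell at 24 h.

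Purine synthesis uses formyl-folate in some of its steps, not in all. Of its 6 listed genes, 0 rose and 5 fell at 24 h, and 0 were higher and 6 lower at 72 h. Of all tested genes, 51.7% fell at 24 h and 33.0% were lower at 72 h. PAICS had 159, 165 and 166 TPM at 24 h and 82.9, 86.7 and 82.9 TPM at 72 h, against 275, 282 and 284 TPM untreated (log2 fold changes -0.78 and -1.72, limma adjusted p = 3.96e-08 and 2.26e-10). With centring, 1 rose and 3 fell at 24 h, and leaving out untreated replicate 2 or THC 24 h replicate 3 left 3 that fell.
Thus SHMT2, MTHFD2 and MTHFD1L rose at 24 h beside falls of SHMT1, MTHFD1, TYMS and PAICS, and the median log2 fold changes at 24 h were 0.95 for the members, -0.28 for the folate and methionine list and -0.39 for the purine list, against -0.23 over all tested genes.

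Beside PYCR1, 0 of 6 other proline and ornithine genes rose and 4 fell at 24 h, against 25.0% and 51.7% of all tested genes, and 2 were higher and 4 lower at 72 h, against 40.1% and 33.0%. ALDH18A1, which makes the substrate of PYCR1 from glutamate, had 42.8 to 47.5 TPM at 24 h and 41.4 to 43.6 TPM at 72 h, against 59.4 to 65.9 TPM untreated (log2 fold changes -0.43 and -0.53, limma adjusted p = 4.89e-05 and 1.11e-05). ALDH4A1, an enzyme of proline breakdown, fell further, by 1.59 and 1.12 on the log2 scale (limma adjusted p = 1.13e-07 and 1.55e-06). With centring, 2 of the 6 rose at 24 h.
Beside ASNS, 3 of 9 tested aspartate and glutamine genes rose and 3 fell at 24 h, and 4 were higher and 4 lower at 72 h, while centring gave 6 that rose at 24 h. The shares of all tested genes were again 25.0% and 51.7% at 24 h and 40.1% and 33.0% at 72 h. GOT1, the cytosolic enzyme that exchanges aspartate and oxaloacetate, rose by 1.44 and 1.07 (limma adjusted p = 1.54e-08 and 1.31e-07), and its mitochondrial relative GOT2 fell by 0.43 and 0.94 (limma adjusted p = 8.46e-06 and 3.12e-08). ASRGL1, which hydrolyses asparagine, had 10.9, 9.18 and 9.77 TPM at 24 h and 12.01, 13.6 and 13.6 TPM at 72 h, against 37.5, 41.6 and 38.6 TPM untreated (log2 fold changes -1.88 and -1.52, limma adjusted p = 1.10e-08 and 5.01e-08).

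Of 9 factors known to act on these genes, 7 rose and 1 fell at 24 h, and 8 were higher and 1 lower at 72 h, where 25.0% of all tested genes rose at 24 h and 40.1% were higher at 72 h. ATF4 mRNA had 1031, 1102 and 1069 TPM at 24 h and 1023, 1011 and 1026 TPM at 72 h, against 334, 321 and 333 TPM untreated (log2 fold changes 1.69 and 1.63, limma adjusted p = 2.76e-10 and 2.83e-10). DDIT3, the stress factor CHOP, rose by 4.60 and 4.12 on the log2 scale (limma adjusted p = 2.17e-12 and 4.93e-12), and CEBPG, a partner of ATF4, by 1.12 and 1.75 (limma adjusted p = 1.76e-08 and 1.04e-09). ATF5 had 14.4, 11.1 and 12.6 TPM at 24 h and 58.0, 52.2 and 52.2 TPM at 72 h, against 35.2, 33.5 and 31.3 TPM untreated. It fell at 24 h (-1.33, limma adjusted p = 3.20e-07) and was higher at 72 h (0.68, limma adjusted p = 5.19e-05), so it crossed the untreated level between the times. MYC had a log2 fold change of 0.02 at 24 h (limma adjusted p = 0.811) and fell by 0.38 at 72 h (limma adjusted p = 1.21e-04).

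**Figure D5:**
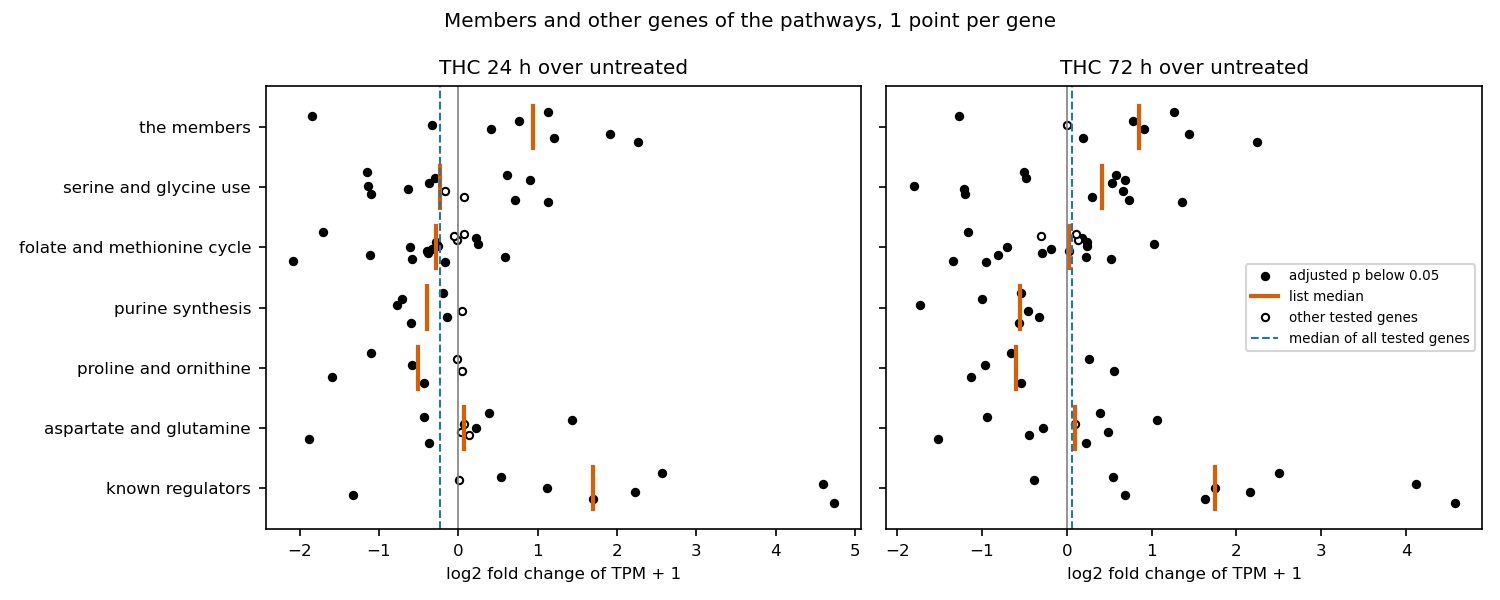
Log2 fold change of TPM + 1 at 24 h and 72 h for each tested gene (1 point a gene) of the 10 described genes and of 6 lists, with each list's median (orange) and the median of all tested genes (dashed). The described genes and the known regulators have medians right of the dashed line at both times, and the purine and the proline and ornithine lists have medians left of it.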

How the data were processed

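The authors deposited RNA-seq as TPM, and 9 columns were matched to samples by their library names. Per the submitters' processing notes, the build was GRCh38 and the tools included Salmon, Bowtie2, MACS3 and MACS2 2.2.7.1, with no roles given. Since TPM holds no read depth, count models were not used. Tests used limma 3.58.1 in R 4.3.3 on log2(TPM + 1) over 3 groups, eBayes with trend, for 13753 genes with a mean of at least 1 TPM, and were checked on simulated data. Peaks were called per library. The fold (ratio) of each deposited peak was used only within its list, the deposited −log10 q values to rank and filter peaks (lowest about 1.30 in ATAC and 2.00 in H3K4me3 lists), and the deposited score was not used. Peaks and figures were handled in Python 3.11.15 with pandas 2.3.3, numpy 2.4.6 and matplotlib 3.10.9. Symbols were assigned by Ensembl gene identifier, and 59918 identifiers had a symbol. Gene positions and promoter sequences came from RefSeq. The genes and lists were chosen with earlier results of these data known. Besides the 10 genes, named genes are part of those with the 4 largest called changes per list and comparison, the ratio partners, MTHFD1, ALDH18A1 and ATF4. Some genes and a ratio that this rule takes are not reported here. The alternatives changed the pseudocount, filter, scaling, model, peak threshold, overlap and window, or left out 1 library.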

Additional observations from a re-analysis of the deposited data

Results flagged for a closer look

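The results below differed between the 2 THC times by the test of the difference itself, the 72 h minus 24 h contrast of limma. For 6 of the described genes the log2 difference was 0.50 for PSAT1, 0.34 for PSPH, 0.57 for SHMT1, 0.13 for SHMT2, -0.48 for MTHFD2 and -1.02 for MTHFD1L. With libraries centred on their median the PSPH difference was 0.03 (limma adjusted p = 0.456) and that of SHMT2 was -0.17. The SHMT2 call was also lost without THC 24 h replicate 2, THC 24 h replicate 3 or THC 72 h replicate 3. MTHFD1L was 2.35-fold over untreated at 24 h and 1.14-fold at 72 h. MTHFD2 kept more of its rise, 3.81-fold at 24 h and 2.74-fold at 72 h, while PSAT1 was 1.34-fold at 24 h and 1.89-fold at 72 h.

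The partner gene MTHFD2L differed by 0.50, which centring libraries on their median reduced to 0.19 (limma adjusted p = 0.0784). MTHFD2L was lower than untreated at 24 h (log2 fold change -0.25, limma adjusted p = 0.0306) and higher at 72 h (0.24, limma adjusted p = 0.0384). Both calls were lost with centring (limma adjusted p = 0.72 and 0.138) and on leaving out some single libraries. Among the other named genes, those reported here that lay on opposite sides of the untreated level at the 2 times were ATF5 (2.01), GNMT (0.91), ASNSD1 (0.60) and GLUD1 (-0.51). GLUD1, glutamate dehydrogenase, was higher than untreated at 24 h and lower at 72 h, and the other 3 were lower at 24 h and higher at 72 h. GNMT averaged 0.443 TPM in THC 24 h, 1.71 TPM in THC 72 h and 0.867 TPM in untreated libraries. Its mean over the 9 libraries, 1.01 TPM, passed the filter of 1 TPM only through the 72 h libraries.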

How the results depend on the processing

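Of 2422 values recomputed under an alternative, 2353 counted as kept. A fold change was kept if it stayed on its side of the threshold and, where called, kept its direction. A change of sign between 2 values that were not called counted as kept, as for PSPH at 72 h (-0.08 to 0.03). Ratios were judged by direction alone, and a count was kept within 1.5 times. All 8 tested genes kept direction and call at 24 h under every alternative, with ASNS between 2.17 and 2.49, MTHFD2 between 1.86 and 2.13 and SHMT1 between -1.90 and -1.62 on the log2 scale. At 72 h only MTHFD1L lost its call. The widest effect came from centring libraries on their median. For 72 h against 24 h it gave 4176 genes higher and 5217 lower, where 7546 and 2445 were called, and of the described genes 2 higher and 5 lower, reversing SHMT2 (-0.17) and PYCR1 (-0.28). PPAT (0.030) was reversed at 24 h.

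Centring also gave, for higher genes at 24 h, 5 of the folate and methionine, 1 of the purine, 2 of the proline and ornithine and 6 of the aspartate and glutamine list, and for lower genes 7 of the folate and methionine and 3 of the purine list. Purine genes lower at 24 h were 3 with no filter and 3 to 4 leaving out 1 library. At 72 h, 3 folate and methionine genes were higher with centring, and 3 without mitochondrially encoded genes. For 72 h against 24 h, centring gave 4 folate and methionine, 1 proline and ornithine and 1 aspartate and glutamine genes higher, and 7 serine and glycine, 8 folate and methionine, 2 proline and ornithine and 7 regulator genes lower. Leaving out mitochondrially encoded genes gave 4 regulators lower. With a mean of at least 5 TPM, fewer genes were tested, and 4 serine and glycine genes were higher at 72 h and 0 proline and ornithine genes lower at 72 h than at 24 h. With no filter, 3 described genes were lower at 24 h and 2 at 72 h, the added one being ALDH1L2.

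Leaving out 1 library gave 6 to 9 described genes with ATAC peaks in all THC 72 h libraries. At −log10 q of at least 5 the counts were 6, 5 and 6 in THC 24 h, THC 72 h and untreated libraries, and no alternative gave a gained or lost start peak. Replicate numbers did not pair the RNA libraries (correlations of same-numbered deviations -0.20 to 0.25), and with the number as a replicate block 3447 genes were higher and 7130 lower at 24 h, with 6 and 2 of the described genes and no changed call among them. Depth is unknown, so the levels of PHGDH and ALDH1L2 have no interval.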
